A study of Mus musculus with 6 samples.

Results

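Glutathione and antioxidant genes were followed in mouse ovaries after injection of M1, a compound that promotes mitochondrial fusion. The genes were chosen by symbol: the numbered members of the glutathione S-transferase families alpha, mu, pi, theta, omega, kappa and zeta, the microsomal transferases (Mgst), the glutathione peroxidases (Gpx) and the peroxiredoxins (Prdx), together with Gclc, Gclm, Gss, Gsr, Txn1, Txn2, Txnrd1, Txnrd2, Sod1, Sod2, Cat, Hmox1, Nqo1, Srxn1, Keap1 and Nfe2l2. The rule found 57 members among 55536 genes. Of these, 49 passed the filter on low counts and were tested. The libraries came from 6 female ICR mice aged 10 weeks, 3 in the Control group and 3 in the M1 group, with both ovaries of a mouse combined into 1 library. M1 mice were injected intraperitoneally with 10 mg/kg M1 at 9 h and 16 h on the day of proestrus, and the ovaries of all mice were collected at 20 h of that day. M1 was given in a solution of DMSO and Tween in PBS. What the Control mice were injected with, and whether it held this solvent, is not stated in the labels. The sample descriptions mark the M1 libraries as cycle disrupted and the Control libraries as normal. With 1 library per mouse, the p-values below measure the spread between these mice.

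Glutathione is a small thiol peptide made by glutamate-cysteine ligase and glutathione synthetase and kept reduced by glutathione reductase with NADPH. Transferases couple it to reactive lipids and foreign compounds, glutathione peroxidases spend it to remove hydrogen and lipid peroxides, and the peroxiredoxins do the same work with electrons from thioredoxin, while superoxide dismutases and catalase need no thiol. Many of these genes are targets of NRF2, a transcription factor that KEAP1 holds at low levels until electrophiles or oxidants modify KEAP1, and in the ovary the system is known for its high activity in steroid-producing cells.

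The counts assigned to genes summed to between 12536440 and 18651402 per library. For each mouse, a level is a CPM (its count set against a library size after TMM, for comparing mice) or the authors' TPM (which corrects for gene length and allows genes to be compared and summed). Among the fixed marker lists, the steroid-cell genes were the highest (summed TPM of 16450 to 29940 over 6 theca and interstitial genes), and granulosa and oocyte genes were present in every library. Of the 3 liver genes, Alb and Ttr were at 0, and Apoa1 was present at 22.6 to 66.2 TPM. The median log2 difference of the oocyte markers was -0.59 for M1 against Control, with 7 of 8 negative, and all 6 smooth muscle and pericyte markers were negative. The part of cell makeup in the values of the members was not tested. In a whole ovary, fewer cells of a type and less RNA per cell cannot be told apart. Reads of mitochondrially encoded genes took 3.82% to 5.14% of counts in Control and 5.98% to 7.35% in M1. Control 1 stood apart from the other Control libraries: the slope of its relative counts on log2 gene length was -0.02, against 0.08 and 0.10 in Control 2 and 3 and -0.07 to -0.02 in M1. Without Control 1, edgeR called 230 genes higher and 552 lower in M1, and with it 1 and 0.

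Most glutathione and antioxidant genes lay somewhat higher in M1 ovaries. The summed TPM of the peroxiredoxins, of the superoxide dismutases with catalase and of the microsomal transferases was higher in every M1 mouse than in any Control mouse. Nfe2l2, which encodes NRF2, and Gclc, the catalytic subunit of glutathione synthesis, had log2 fold changes of -0.08 and 0.01. With all 6 libraries, no member was called by edgeR at an adjusted p under 0.05 with a fold change above 1.5, where 0.00571% of all 17499 tested genes were called. By unadjusted p under 0.05, however, 12 of the 49 tested members were higher in M1 and 0 were lower. Over all genes the shares were 7.7% higher and 9.17% lower. The 12 were Mgst2, Gstk1, Prdx5, Prdx2, Gpx8, Sod2, Sod1, Prdx3, Cat, Mgst1, Prdx1 and Gstm7, and their edgeR adjusted p-values lay between 0.201 and 0.296. The log2 fold change was positive for 39 members and negative for 10, with a median of 0.26, against 49.5% positive and a median of -0.0049 over all tested genes. In 10 members every M1 mouse was above every Control mouse (20.4%, background 11.4%), and no member had every M1 mouse below (background 11.2%). DESeq2 called Mgst2 and Gstk1 higher, where 1.5% of its 14779 genes with an adjusted p were called in that direction. Limma-voom called 0 members and gave 9 an unadjusted p under 0.05, where 2927 of the 17499 tested genes had one in either direction. Without Control 1, edgeR called Gpx8 and Prdx5 higher, in a fit that called 1.28% of all genes higher. Among the single libraries left out, the count of 12 fell to 4 without M1 2 and to 6 without each of Control 2, Control 3 and M1 3, and it was 13 without Control 1 and 14 without M1 1. The share of all genes under that p was not counted in these fits, so these counts have no background of their own.

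**Figure D1:**
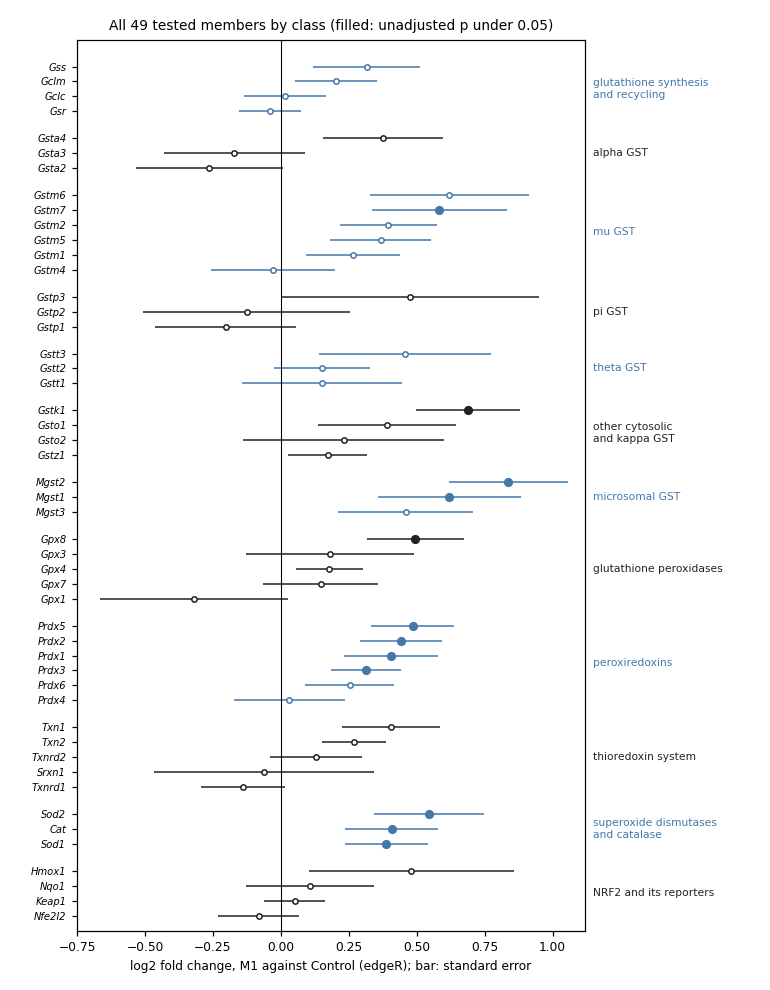
Log2 fold change of M1 against Control (x axis, edgeR) for each of the 49 tested members (y axis, by class), with bars for the standard error and filled points for an unadjusted p under 0.05. Of the 49 points, 39 lie right of 0, the 12 filled ones all do, and Mgst2 lies farthest right at 0.84.

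The members are short genes, and length bears on these libraries. Their median exon length was 2023 bases, against 3872 bases for all tested genes. The 6361 tested genes within the middle range of member lengths (1478 to 3842 bases) were themselves shifted, with a median log2 value of 0.08, and 10.1% of them were higher at an unadjusted p under 0.05. With an offset that removes the trend of each library on gene length, the median of the members was 0.17, 35 were positive and 14 negative, and 7 were higher at an unadjusted p under 0.05 (background 7.26% higher and 7.47% lower, with 0 members lower). Those 7 were Mgst2, Sod2, Prdx5, Prdx2, Sod1, Txn2 and Gstk1. On the authors' TPM the median of the members was 0.08, where the median of all genes was -0.16, and only Mgst2 and Gstk1 kept an unadjusted p under 0.05 (limma). The share of all genes under that p was not counted on TPM.

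**Figure D2:**
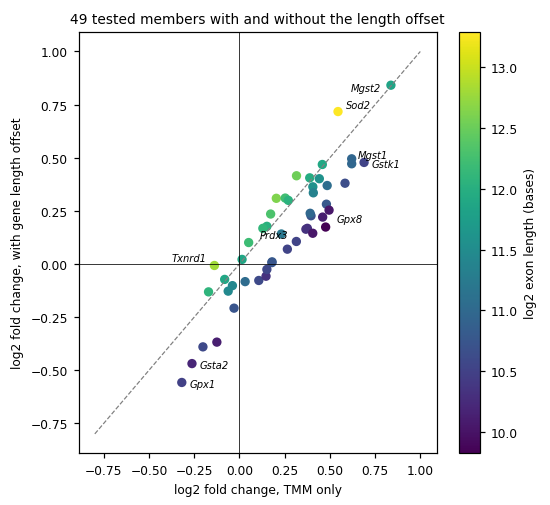
Log2 fold change of each of the 49 tested members without (x axis) and with (y axis) the gene length offset, coloured by log2 exon length in bases, with the dashed line marking equal values. Short genes (dark) lie below the line, and their shift takes the median from 0.26 to 0.17, while the long Sod2 lies above it (0.54 without and 0.72 with the offset) and Mgst2 is at 0.84 in both.

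The promoters of 4 members are shown in sequence because they span the results: Mgst2 and Gstk1 were the members that DESeq2 called, and Prdx1 and Srxn1 carry the letters of the antioxidant response element (ARE, the site that NRF2 binds with a small MAF protein) and of the overlapping AP-1 site.
Prdx1: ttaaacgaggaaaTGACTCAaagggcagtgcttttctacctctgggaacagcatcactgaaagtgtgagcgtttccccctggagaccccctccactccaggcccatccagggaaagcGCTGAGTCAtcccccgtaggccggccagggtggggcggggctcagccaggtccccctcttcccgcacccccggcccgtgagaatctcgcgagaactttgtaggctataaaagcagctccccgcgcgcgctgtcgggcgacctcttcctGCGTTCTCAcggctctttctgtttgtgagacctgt
Srxn1: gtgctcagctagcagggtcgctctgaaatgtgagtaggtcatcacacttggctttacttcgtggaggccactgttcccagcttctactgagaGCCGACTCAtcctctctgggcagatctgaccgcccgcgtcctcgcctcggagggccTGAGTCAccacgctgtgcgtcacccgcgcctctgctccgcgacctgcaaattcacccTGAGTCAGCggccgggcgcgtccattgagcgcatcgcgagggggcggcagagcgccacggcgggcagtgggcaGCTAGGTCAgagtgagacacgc
Mgst2: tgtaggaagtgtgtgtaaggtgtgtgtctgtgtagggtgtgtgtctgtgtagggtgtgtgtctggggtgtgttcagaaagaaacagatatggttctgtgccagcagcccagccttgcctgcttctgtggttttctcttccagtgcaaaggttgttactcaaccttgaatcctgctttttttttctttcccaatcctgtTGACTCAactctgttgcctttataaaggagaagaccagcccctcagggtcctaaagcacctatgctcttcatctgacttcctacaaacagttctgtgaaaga
Gstk1: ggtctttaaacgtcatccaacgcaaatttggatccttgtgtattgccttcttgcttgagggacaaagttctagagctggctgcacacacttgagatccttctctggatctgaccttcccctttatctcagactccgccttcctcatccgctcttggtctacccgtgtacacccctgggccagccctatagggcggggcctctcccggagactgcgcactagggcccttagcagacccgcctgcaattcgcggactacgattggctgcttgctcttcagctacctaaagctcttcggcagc
Capitals mark TGACNNNGC and TGAGNNNGC, the letters of the ARE core, and TGAGTCA, those of the AP-1 site, each on either strand. The windows run from 250 bases before to 50 bases after the RefSeq start site on GRCm38.p6, all on the plus strand, at chr4:116685349-116685648 for Prdx1, chr2:152105274-152105573 for Srxn1, chr3:51660929-51661228 for Mgst2 and chr6:42245685-42245984 for Gstk1. At position -133 of Prdx1 both motifs overlap as TGACTCAGC, read on the minus strand, which 0.454% of all 32851 promoters hold and no other member promoter does. The Srxn1 window holds TGAGTCAGC at position -45, where the second ARE form and the AP-1 site overlap, beside 3 further matches. That of Mgst2 holds an AP-1 match at position -52 and no ARE match, and that of Gstk1 holds none of these letters. The Mgst2 window lies inside the annotated gene, which begins at chr3:51660360, and the sequence before that beginning was not read.

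Entries were matched for 49 members, with 63 promoters, and none was matched for Gstt2, Prdx2-rs3, Gsr, Gclc, Prdx6b, Gsta4, Prdx6 and Hmox1. TGACNNNGC was found in 15.9% of member promoters and 12.4% of all promoters, TGAGNNNGC in 17.5% and 17.6%, and TGAGTCA in 9.52% and 5.2%. Of the 10 tested members with TGACNNNGC (Gclm, Gsta3, Gstm5, Gstm7, Mgst1, Nfe2l2, Prdx1, Sod1, Srxn1 and Txnrd1), 4 were among the 12 with an unadjusted p under 0.05, where 43 tested members had a promoter. A match is a description of the letters and was not tested for binding.

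The 4 genes of glutathione synthesis and recycling all overlapped between the groups, and none had an unadjusted p under 0.05. Gclc, the catalytic subunit of glutamate-cysteine ligase, the rate-limiting enzyme, had 90.6, 92.0 and 123 CPM in Control and 101, 111 and 96.5 CPM in M1. Its log2 fold change was 0.01 (SE 0.15, edgeR adjusted p = 0.970). The regulatory subunit Gclm had 58.5, 46.3 and 57.5 CPM in Control and 54.6, 60.8 and 71.6 CPM in M1, a log2 difference of 0.20 (edgeR adjusted p = 0.518). Control 3 was the highest mouse for Gclc, and M1 3 for Gclm.

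Glutathione synthetase, Gss, had 26.7, 42.1 and 28.6 CPM in Control and 44.5, 41.2 and 35.5 CPM in M1, with 1 Control mouse as high as the M1 mice (log2 0.32, SE 0.20, edgeR adjusted p = 0.440). Exons of Gss overlap those of Acss2, and counting by strand is not stated in the sources used here. Glutathione reductase, Gsr, had the smallest standard error of the class, at 59.3, 49.7 and 57.9 CPM in Control and 54.9, 54.3 and 53.2 CPM in M1 (log2 -0.04, SE 0.11, edgeR adjusted p = 0.885). The summed TPM of the class was 209, 187 and 232 in Control and 200.5, 183 and 190.5 in M1.

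Of the cytosolic transferases, the mu family was the most abundant, and its members mostly had positive differences. The median log2 fold change of the mu class was 0.38, with 5 of 6 tested members positive. Gstm1, the highest of them by TPM, had 338, 249 and 264 CPM in Control and 291, 343 and 388 CPM in M1, a log2 difference of 0.26 (SE 0.17, edgeR adjusted p = 0.462). Of its 75-base windows 14.8% also occur in other genes, so part of its counts is uncertain, by an amount that this share does not measure. Gstm7 had 25.4, 26.2 and 33.3 CPM in Control and 27.1, 52.4 and 47.8 CPM in M1. M1 2 and M1 3 were above every Control mouse and M1 1 was not. Its log2 difference was 0.58 (SE 0.25, edgeR adjusted p = 0.296), and 0.38 with the length offset. The other mu genes ran from -0.03 in Gstm4 to 0.62 in Gstm6. In Gstm6, as in Gstm1, Gstm2 and Gstm5, Control 1 was the highest Control mouse, and without Control 1 the median of the class was 0.52.

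In the alpha and pi classes 1 of 3 tested members was positive, and in the theta class 3 of 3, with no unadjusted p under 0.05 in any of them. Gsta4, which conjugates the lipid aldehyde hydroxynonenal and supplied 88.5% of the summed TPM of the alpha class, had 114, 108 and 63.5 CPM in Control and 132, 128 and 109.6 CPM in M1. Control 3 was low and the groups overlapped (log2 0.38, SE 0.22, edgeR adjusted p = 0.415). Gsta2 and Gsta3 had negative differences of -0.26 and -0.17, with edgeR adjusted p = 0.652 and 0.770. Gstp1, which supplied 95.2% of the summed TPM of the pi class, had 133, 91.3 and 99.6 CPM in Control and 70.4, 79.0 and 133 CPM in M1. M1 1 and M1 2 lay below every Control mouse while M1 3 was level with the highest Control mouse, and the log2 difference was -0.20 (SE 0.26, edgeR adjusted p = 0.725). Windows shared with Gstp2 and a pseudogene made up 57.7% of Gstp1, so the split between these genes is uncertain.

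Gstt1, the highest theta member by TPM, had 15.4, 13.6 and 12.8 CPM in Control and 22.1, 9.51 and 14.8 CPM in M1. The M1 mice thus included both the highest and the lowest value (log2 0.15, SE 0.29, edgeR adjusted p = 0.824), and the sign turned to -0.03 with the length offset. Gsto1 of the omega class, which reduces dehydroascorbate, had 46.1, 69.5 and 76.6 CPM in Control and 62.4, 110.2 and 79.5 CPM in M1, with overlap (log2 0.39, SE 0.25, edgeR adjusted p = 0.458).

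Gstk1, the kappa transferase of mitochondria and peroxisomes, was low but separated the groups. It had 7.04, 7.40 and 8.20 CPM in Control and 10.7, 13.5 and 12.3 CPM in M1, and every M1 mouse was above every Control mouse. The fold change was 1.61 (log2 0.69, SE 0.19, edgeR adjusted p = 0.202). DESeq2 called it with an adjusted p of 0.0431, and its adjusted p over all alternatives ran from 0.0431 to 0.487. The gene lies at chr6:42245935-42250447 on the plus strand, and none of its 75-base windows occurs in another gene.

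The microsomal transferases are membrane proteins that conjugate glutathione and reduce lipid hydroperoxides, and their class had the highest median log2 fold change, 0.62, with 3 of 3 positive. Mgst2, which can also make leukotriene C4, had 29.9, 37.9 and 46.9 CPM in Control and 62.0, 87.1 and 56.0 CPM in M1. All M1 mice were above all Control mice. Its fold change of 1.79 was the highest of any member tested (log2 0.84, SE 0.22, edgeR adjusted p = 0.201). DESeq2 called it with an adjusted p of 0.030, and over all alternatives its adjusted p ran from 0.030 to 0.487. It spans chr3:51660360-51682677 on the plus strand and shares no 75-base window with another gene.

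Mgst1 was the most abundant of the class, at 276, 375 and 362 CPM in Control and 382, 735 and 441 CPM in M1. The groups did not overlap, but M1 1 was only just above Control 2 and M1 2 stood far above the rest (log2 0.62, SE 0.26, edgeR adjusted p = 0.294). M1 2 also had the highest summed TPM of luteal markers, 16430, against 2624 to 13170 in Control and 3336 and 6589 in the other M1 mice. Most of that sum in M1 2 was a single gene, Akr1c18, at 13670 TPM, which was as low as 8.97 TPM in Control 1. M1 2 was also the highest mouse by CPM for Mgst2, Gstk1, Prdx1, Prdx2, Prdx3, Sod1, Sod2 and Gstm7, and only just for Gpx8. Of the 12 members with an unadjusted p under 0.05, only Prdx5 and Cat were highest in another mouse. The part of luteal tissue in the levels of Mgst1 and these other members was not tested. Mgst3 had a log2 difference of 0.46 (SE 0.25, edgeR adjusted p = 0.374). Summed over the class, TPM was 604.5, 705.5 and 721 in Control and 732, 1147 and 835 in M1, a ratio of the means of 1.34.

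**Figure D3:**
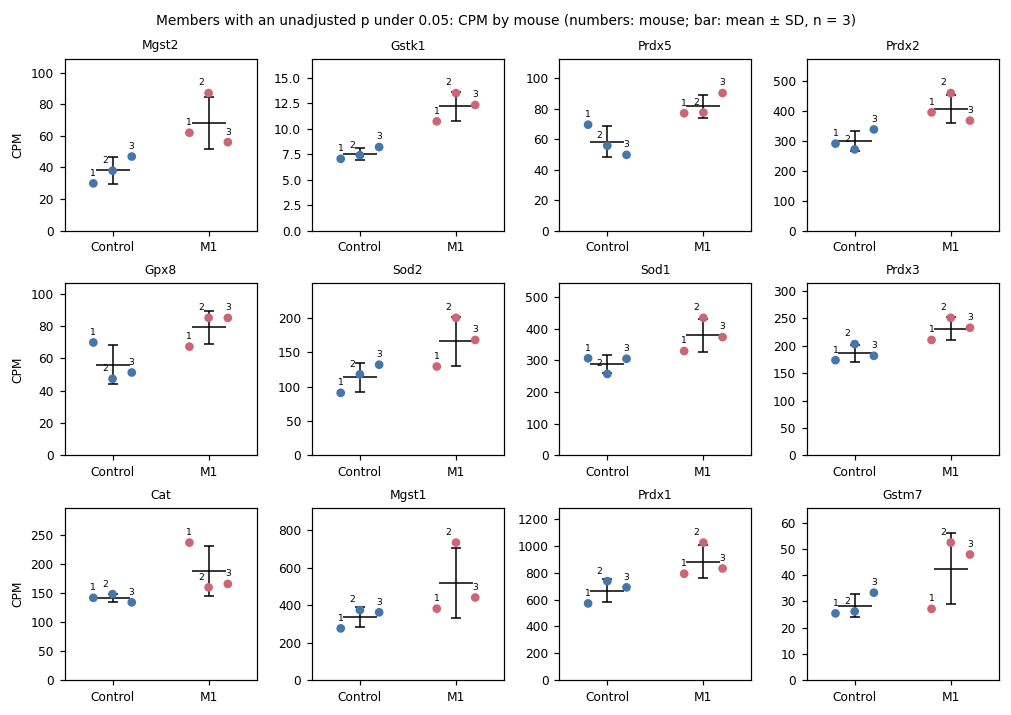
CPM (y axes, from 0) by mouse of the 12 members with an unadjusted p under 0.05, with Control in blue, M1 in red, numbers for the mice and bars for mean ± SD (n = 3). The groups do not overlap in 9 of the 12, and they overlap in Gpx8, Sod2 and Gstm7. The 12 were picked by p in these same mice. Every M1 mouse was above every Control mouse in 20.4% of all 49 tested members and in 11.4% of all tested genes.

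Among the glutathione peroxidases only Gpx8 had an unadjusted p under 0.05. Gpx3, the secreted plasma form, was the member with the highest TPM of all, with a mean of 1602 TPM over the 6 mice. It had 618, 1146 and 812 CPM in Control and 1036, 1252 and 632 CPM in M1, and the groups overlapped widely (log2 0.18, SE 0.31, edgeR adjusted p = 0.798). Gpx4, which reduces lipid hydroperoxides in membranes and so guards against ferroptosis, had 228, 230.04 and 263 CPM in Control and 286, 276 and 254 CPM in M1. Its log2 difference was 0.18 (SE 0.12, edgeR adjusted p = 0.491), and 0.01 with the length offset. Windows shared with a pseudogene made up 55.3% of Gpx4. Gpx1, a form of cytosol and mitochondria, had the lowest log2 value of all members, -0.32 (SE 0.34, edgeR adjusted p = 0.666).

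Gpx8 sits in the membrane of the endoplasmic reticulum. It had 69.8, 47.4 and 51.3 CPM in Control and 67.3, 85.1 and 85.1 CPM in M1. Control 1 lay above M1 1, so the groups overlapped, and the log2 difference was 0.50 (SE 0.18, edgeR adjusted p = 0.248). Without Control 1 the difference was 0.68 and passed the call with an edgeR adjusted p of 0.0489, in a fit that called 1.28% of genes higher and 3.07% lower. Its adjusted p over all alternatives ran from 0.0489 to 0.551.

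The peroxiredoxins had 6 of 6 tested members positive, a median log2 fold change of 0.36 and 4 members with an unadjusted p under 0.05. Their summed TPM was 1813, 1823 and 1923 in Control and 2052, 2174 and 2074 in M1. Every M1 mouse was above every Control mouse, and the ratio of the means was 1.13 by TPM and 1.29 by CPM. Prdx1, a cytosolic peroxidase and the most abundant, had 572, 738 and 691 CPM in Control and 793, 1025 and 832 CPM in M1. The log2 difference was 0.41 (SE 0.17, edgeR adjusted p = 0.296), and it is the member whose promoter holds TGACTCAGC.

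Prdx2, the cytosolic form abundant in red cells, had 291, 272 and 338 CPM in Control and 395, 460.1 and 368 CPM in M1, without overlap (log2 0.44, SE 0.15, edgeR adjusted p = 0.239). Exons of Prdx2 overlap those of Junb and Rnaseh2a. Junb, an AP-1 subunit, had 12.8 to 35.2 CPM in Control and 40.8 to 95.9 CPM in M1. Its share in the counts of Prdx2 was not tested.

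Prdx3, the peroxiredoxin of the mitochondrial matrix, had 174, 203 and 182 CPM in Control and 211, 251 and 233 CPM in M1. The groups were separate by a small margin between Control 2 and M1 1 (log2 0.31, SE 0.13, edgeR adjusted p = 0.283). With the length offset its difference was 0.11. Prdx5, found in mitochondria, peroxisomes and cytosol, had 69.6, 55.8 and 49.8 CPM in Control and 77.1, 77.6 and 90.4 CPM in M1. Every M1 mouse was higher, and the log2 difference was 0.48 (SE 0.15, edgeR adjusted p = 0.225). Without Control 1, the highest Control mouse, it was 0.63 and was called with an edgeR adjusted p of 0.0460. That fit called 1.28% of all genes higher. The adjusted p of Prdx5 over all alternatives ran from 0.0460 to 0.533. Prdx5 overlaps Trmt112, which had 24.3 to 28.8 CPM in Control and 32.2 to 37.2 CPM in M1. Prdx6 and Prdx4 had log2 differences of 0.25 (edgeR adjusted p = 0.462) and 0.03 (edgeR adjusted p = 0.951).

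**Figure D4:**
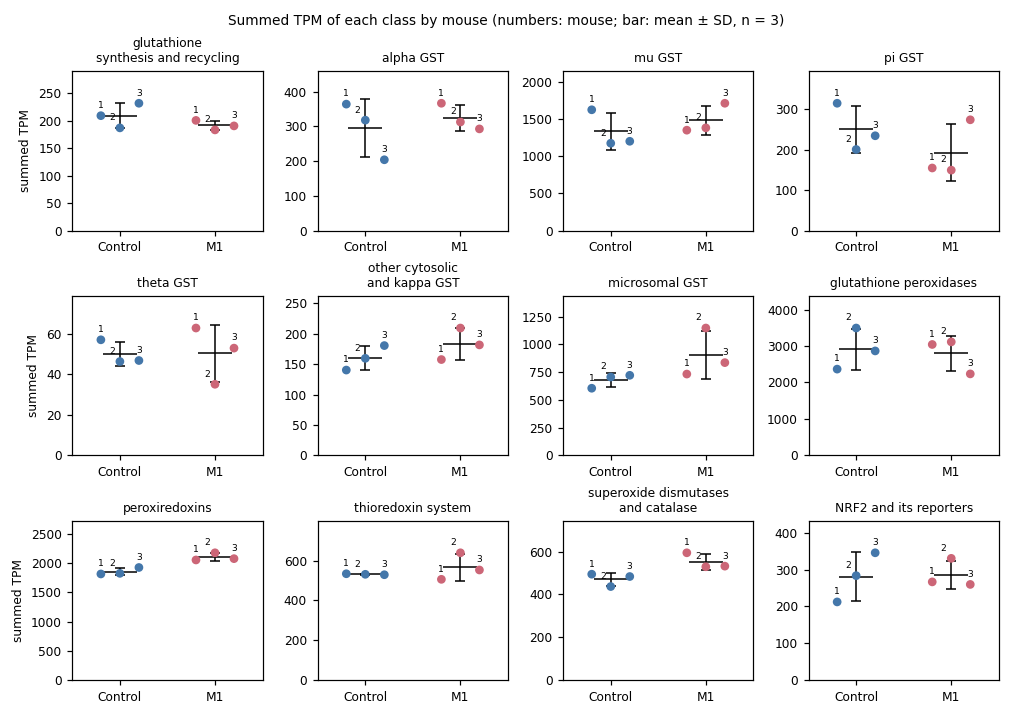
Summed TPM of each class (y axes, from 0) by mouse, with Control in blue, M1 in red, numbers for the mice and bars for mean ± SD (n = 3). Every M1 mouse is above every Control mouse for microsomal transferases, peroxiredoxins, and superoxide dismutases with catalase, and the groups overlap in the other 9 classes.

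The thioredoxin system, which feeds electrons to the peroxiredoxins, had no member with an unadjusted p under 0.05. Cytosolic thioredoxin, Txn1, had 108, 101 and 100.5 CPM in Control and 105, 172 and 134 CPM in M1. M1 1 lay within the Control values (log2 0.41, SE 0.18, edgeR adjusted p = 0.307). Txn2, its mitochondrial counterpart, did not overlap between the groups, with a log2 difference of 0.27 (edgeR adjusted p = 0.302). The cytosolic thioredoxin reductase Txnrd1 had 119, 127 and 154 CPM in Control and 120, 138 and 105 CPM in M1 (log2 -0.14, SE 0.15, edgeR adjusted p = 0.678), and the mitochondrial Txnrd2 had a log2 difference of 0.13 (edgeR adjusted p = 0.728). Sulfiredoxin, Srxn1, which repairs overoxidised peroxiredoxins, varied more between the mice of a group than the others of this system. It had 20.8, 66.6 and 41.6 CPM in Control and 47.7, 48.8 and 26.9 CPM in M1, so that its log2 difference of -0.06 had an SE of 0.41 (edgeR adjusted p = 0.951).

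Superoxide dismutases and catalase all had an unadjusted p under 0.05, and their summed TPM was higher in every M1 mouse, at 594.5, 529 and 532 against 494.5, 437 and 484 in Control, a ratio of the means of 1.17. Sod1, the cytosolic copper and zinc enzyme, had 306, 257 and 305 CPM in Control and 329, 434 and 373 CPM in M1, without overlap (log2 0.39, SE 0.15, edgeR adjusted p = 0.270). Its difference was 0.41 with the length offset. Sod2, the manganese enzyme of the mitochondrial matrix, had 90.8, 118 and 132 CPM in Control and 129, 199.9 and 168 CPM in M1. Control 3 was slightly above M1 1 (log2 0.54, SE 0.20, edgeR adjusted p = 0.253).

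Catalase, Cat, which breaks down hydrogen peroxide in peroxisomes, had 142, 148 and 134 CPM in Control and 237, 160 and 166 CPM in M1. All M1 mice were above Control, with M1 1 far above the others (log2 0.41, SE 0.17, edgeR adjusted p = 0.292). Red cells carry much catalase, and M1 1 also had the highest summed TPM of the 6 erythrocyte markers, 1291, against 207 to 503 in Control and 72.9 and 259 in the other M1 mice. The part of blood in the level of Cat was not tested.

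Neither NRF2, its inhibitor KEAP1 nor the genes often read as NRF2 reporters had an unadjusted p under 0.05. Nfe2l2, which encodes NRF2, had 100.1, 136 and 137 CPM in Control and 122, 117 and 113 CPM in M1 (log2 -0.08, SE 0.15, edgeR adjusted p = 0.809). Keap1 had 49.4, 43.2 and 45.5 CPM in Control and 49.8, 47.6 and 45.6 CPM in M1 (log2 0.05, SE 0.11, edgeR adjusted p = 0.845). Both genes overlapped between the groups. These are transcript levels, and NRF2 is regulated mainly at the level of the protein.

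Nqo1, a quinone reductase, was low, at 5.33, 5.49 and 4.24 CPM in Control and 5.91, 5.46 and 4.82 CPM in M1 (log2 0.11, SE 0.24, edgeR adjusted p = 0.846). Heme oxygenase, Hmox1, which degrades heme, had 34.99, 66.1 and 91.7 CPM in Control and 64.8, 130.3 and 74.1 CPM in M1. The groups overlapped, with 1 Control mouse above all M1 mice but M1 2 (log2 0.48, SE 0.38, edgeR adjusted p = 0.546). Over Gclc, Gclm, Gsr, Nqo1, Hmox1, Srxn1 and Txnrd1, a grouping made after the values were seen, 4 of 7 log2 values were positive and 3 negative and the median was 0.01. Tested members with TGACNNNGC outside this grouping were Gsta3 (-0.17), Nfe2l2 (-0.08), Gstm5 (0.37), Sod1 (0.39), Prdx1 (0.41), Gstm7 (0.58) and Mgst1 (0.62). The median thus depends on the genes taken, and NRF2 activity was not tested.

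**Figure D5:**
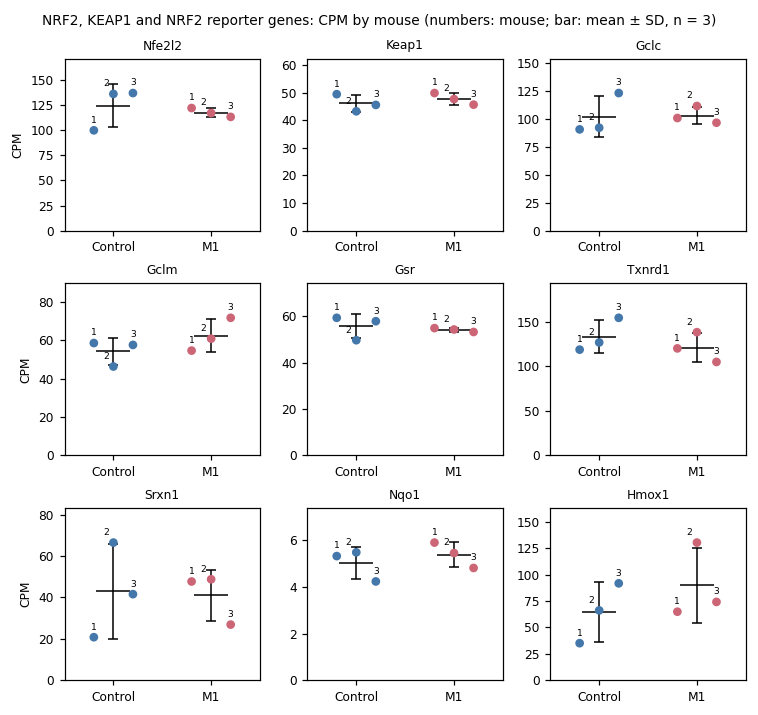
CPM (y axes, from 0) by mouse of Nfe2l2, Keap1 and 7 genes often read as NRF2 reporters, with Control in blue, M1 in red, numbers for the mice and bars for mean ± SD (n = 3). The groups overlap in all 9 panels, and Srxn1 and Hmox1 have the widest spread within a group.

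Grouped by the place where the proteins work, again after the values were seen, 6 members were taken for mitochondria (Gstk1, Prdx3, Prdx5, Sod2, Txn2 and Txnrd2). All 6 were positive, with a median log2 fold change of 0.40, or 0.33 with the length offset. Of the 6, 4 had an unadjusted p under 0.05 (66.7%, over all members tested 24.5% and over all genes 7.7% higher). With the length offset 4 had one as well, where 7.26% of all genes were higher. Gpx1, Gsr and Gpx4, which also occur in mitochondria, were not counted among them and had log2 values of -0.32, -0.04 and 0.18. The members taken for the endoplasmic reticulum (Gpx7, Gpx8, Mgst1, Mgst2, Mgst3 and Prdx4) were positive in 6 of 6, with a median of 0.48, or 0.24 with the length offset. Of these, 3 had an unadjusted p under 0.05 (50%, over all members tested 24.5% and over all genes 7.7% higher), and 1 with the length offset. As both groups were made after the values were seen, these shares cannot serve as a test of place, and neither group was tested against the other members. The share of counts from mitochondrially encoded genes, given above, was also higher in every M1 library, and its part in these values was not tested.

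Over all members, the summed CPM was 5303, 6064 and 5794 in Control and 6465, 7980.0 and 6508 in M1, with every M1 mouse above every Control mouse and a ratio of 1.22. By TPM the sums were 8738, 9364 and 8970 in Control and 9490.1, 10209 and 9197 in M1. They overlapped, with M1 3 below Control 2, and the ratio was 1.07.

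Other genes of the glutathione and NRF2 pathways, a list of 88 of which 85 were tested, showed no shared direction. Of these, 9 were higher and 9 lower at an unadjusted p under 0.05 (10.6% each, over all genes 7.7% higher and 9.17% lower). The log2 fold change was positive for 46 and negative for 39, with a median of 0.05. No gene of the list was called by edgeR after the filter on low counts. Without that filter it called 1 higher, Ftl1, where 77 of 33353 genes were called higher. Without Control 1 it called 2 lower, Msrb3 and Anpep, where 3.07% of all genes were called lower. Ftl1, the ferritin light chain that stores iron, had the highest value, with 469, 539 and 786 CPM in Control and 905, 1688 and 1154 CPM in M1 (log2 1.06, SE 0.29, edgeR adjusted p = 0.201), and DESeq2 called it (adjusted p = 0.0125, range over alternatives 0.0125 to 0.487). Ahcy, which splits S-adenosylhomocysteine, had 37.4, 33.0 and 65.9 CPM in Control and 24.8, 23.8 and 20.9 CPM in M1, below every Control mouse, and DESeq2 called it lower (log2 -0.97, adjusted p = 0.0287, range 0.0287 to 0.487). Over all its genes with an adjusted p, DESeq2 called 1.5% higher and 1.79% lower.

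Slc7a11, the cystine importer that supplies glutathione synthesis and an NRF2 target itself, had 4.78, 5.81 and 5.59 CPM in Control and 3.57, 3.15 and 2.93 CPM in M1. All M1 mice were below Control (log2 -0.74, SE 0.24, edgeR adjusted p = 0.232), and no alternative called it (lowest adjusted p 0.0975). Of the 10 genes of this list with the smallest p, the methionine sulfoxide reductases went opposite ways, with log2 differences of 0.44 in Msra and -0.52 in Msrb3. The others were Selenop, the selenium carrier (-0.75), Abcc1, a glutathione conjugate exporter (-0.43), Sesn1, a sestrin (-0.43), Txndc17, a thioredoxin-like protein (0.34), and Cbr1, a carbonyl reductase (0.33). The edgeR adjusted p of these 10 genes lay between 0.195 and 0.255.

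Of the 8 members that were not tested, Gpx2, Gpx5, Prdx2-rs3 (a processed pseudogene) and Prdx6b had 0 counts in all libraries, and Gstm3, Gstt4 and Gpx6 reached at most 2, 2 and 5 counts. Gsta1 reached 44 counts in M1 2 and 19 in Control 2, and between 0 and 3 in the other mice. The luteal gene Akr1c18, which clears progesterone, was likewise highest in M1 2 (5939 CPM) and Control 2 (2394 CPM). Of the 75-base windows of Gsta1, 86.3% also occur in Gsta2 or other relatives, so its counts are uncertain.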

How the data were processed

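Ovarian polyA RNA of 3 Control and 3 M1 mice was sequenced as paired reads, with the grouping given by the titles. The submitters' processing notes name FastQC, MultiQC, Trimmomatic 0.38, HISAT2 2.1.0, featureCounts 2.0.0 and the build GRCm38. The authors deposited whole-number counts per gene without normalization. They deposited TPM and FPKM values that the authors made from these counts and a length per gene. The strand setting and the treatment of reads with several alignments are not given in the sources used here. Gene lengths were recovered from counts and FPKM, and 53 of 53 members with a length matched the summed exons of the gene in GENCODE vM21 (tolerance 1 base).

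Members were chosen by symbol in the TPM table. The members, gene lists and tests were chosen with earlier results of these data known. The main test was edgeR 4.0.16 in R 4.3.3 (filterByExpr with minimum count 10 and minimum total 15, TMM, quasi-likelihood test, Benjamini-Hochberg over all 17499 tested genes, calls at 0.05 with a fold change above 1.5). The common biological coefficient of variation was 0.257. The test was tested on simulated data. Assigned counts ran from 12536440 to 18651402. Genes described by mouse were the 12 members with an unadjusted p under 0.05 or a call by edgeR or DESeq2, the member with the highest mean TPM of each class and 15 members of a fixed list, 30 in all, and up to 10 other pathway genes with the smallest p. Other members are given by their log2 values.

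Alternatives were RLE size factors, DESeq2 1.42.0, limma-voom (limma 3.58.1), a filter of 1 count in any library, a filter of 10 counts in each, the replicate number as a block, a lowess offset on log2 gene length (span 0.5) with and without the block, log2(TPM + 1) in limma, no fold change minimum, and leaving out each library. Windows of 75 bases shared with other genes were counted in the transcripts of GENCODE vM21. Promoters were read from RefSeq.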

Additional observations from a re-analysis of the deposited data

How the results depend on the processing

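The widest standard errors of a log2 value were those of Gstp3 (0.47), which had at most 1.03 CPM, and Srxn1 (0.41). RLE size factors, the filter of at least 10 counts in every library and no fold change minimum moved no count or median beyond 1.5 times or the replicate spread. Of the recomputed summary values, 454 kept their size and 49 moved, and of those of single named genes, 570 kept direction and side of the threshold, 8 came to pass it and 22 changed sign. The cause of the changes was not tested.

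Over all genes, DESeq2 called 221 higher and 264 lower and the lack of a filter 77 and 78, where the main test called 1 and 0. Calls without 1 library ran from 0 to 230 higher and from 0 to 552 lower, highest without Control 1. Members called higher numbered 2 by DESeq2 (Mgst2 and Gstk1) and from 0 to 2 without 1 library (Gpx8 and Prdx5 without Control 1). Among the other pathway genes, DESeq2 called 1 higher and 1 lower, the lack of a filter 1 higher, and leaving out 1 library from 0 to 2 lower.

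Members with an unadjusted p under 0.05 numbered 7 with the length offset, 3 with the length offset and replicate block, 2 by TPM, from 4 to 14 higher without 1 library, and from 0 to 1 lower. Of these fits, the share over all genes was counted only for the length offset without the block (7.26% higher). The numbers of the replicates did not pair the mice (same-number correlations of deviations of 0.0669, 0.106 and -0.255), and not every mouse correlated best with its own number. With the replicate block, 0 genes were called higher (0 also with the length offset), and 8 members had an unadjusted p under 0.05. The share of all genes under that p was not counted with the block.

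The median of the members was 0.17 with the length offset and 0.17 with the block added (main 0.26), 0.082 by TPM, and from 0.23 to 0.30 without 1 library. By TPM, where all genes had a median of -0.16, the class medians were -0.097 for NRF2 and its reporters, -0.013 for glutathione peroxidases, -0.067 for synthesis, 0.11 for other cytosolic and kappa transferases, 0.18 for peroxiredoxins, 0.20 for superoxide dismutases and catalase, and -0.061 for the thioredoxin system. With the length offset the glutathione peroxidase median was 0.0062, and 0.00944 with the block. Without 1 library, class medians ran from -0.20 to 0.042 for alpha transferases, from 0.028 to 0.20 for synthesis, from 0.13 to 0.41 for theta transferases and from 0.072 to 0.27 for the thioredoxin system. Marker medians ran from 0.024 to 0.55 for theca and interstitial genes and from -0.99 to 1.27 for erythrocyte genes, the lowest without M1 1. The log2 ratio of summed values by CPM was 0.29 for all members (0.094 by TPM), 0.090 for synthesis (-0.13), 0.37 for peroxiredoxins (0.18) and 0.43 for superoxide dismutases and catalase (0.23).

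Among the genes described by mouse, the sign changes were in 8, none of which had an unadjusted p under 0.05. Other members also changed sign, among them Gpx1 (up to 0.073 without 1 library), Gsta3 (up to 0.042 without 1 library) and Prdx4 (-0.083 with the length offset). Srxn1 was 0.044 by limma-voom, 0.023 with the block, and from -0.39 to 0.41 without 1 library. Gstt1 was -0.026 with the length offset, -0.12 with the block added, -0.10 by TPM, and from -0.19 to 0.41 without 1 library. Nqo1 was -0.078 with the length offset, -0.081 with the block added, -0.067 by TPM, and from -0.0032 to 0.20 without 1 library. By TPM, Gpx4 was -0.0020, Keap1 -0.13, Gclc -0.15 and Gpx3 -0.013. Without 1 library, Gclc ran from -0.066 to 0.17, Gpx3 from -0.037 to 0.45 and Gsr from -0.11 to 0.0073.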
